A study of Homo sapiens with 2 samples.

Results

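The HOXD cluster holds 9 homeobox genes on human chromosome 2, and the peaks of open chromatin in and around it are described here in J76 and 293T cells. J76 is a T cell line, labelled as a human acute T-lymphoblastic leukemia line, derived from Jurkat and lacking the T cell receptor. 293T (labelled T293) is an adherent human embryonic kidney line that carries the SV40 large T antigen. Each line gave 1 ATAC-seq library from 50000 growing cells, in which a purified Tn5 transposase cut accessible DNA, and 1 list of peaks called by the authors. Since each line has a single library, differences between them have no replicate check and were given no p-value.

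Peaks were taken if their summit lay between 175287487 and 176990907 on chromosome 2 (GRCh38), that is, within the span of the 9 genes (176087487 to 176190907, 103.4 kb) or within 800 kb on either side. This gave 39 of the 58730 J76 peaks and 42 of the 84951 293T peaks on the autosomes and chromosome X. Read depth is unknown, because the lists hold no counts, and a site without a peak was not shown to be closed. Most T cell and kidney-derived marker genes followed the labels. Over all 19974 protein-coding genes, 61.2% had a peak at the gene start in both lines, 3.63% in J76 only and 8.67% in 293T only. Of 10 T cell genes, 8 had a peak at the gene start in J76 only, 1 in both lines (THEMIS) and 0 in 293T only, with CD2 in neither. Of 10 epithelial or kidney-derived genes, 6 had one in 293T only and 3 in both, with KRT8 in neither. Of 4 B cell genes, 0 had a peak in either line, of 4 myeloid genes 1 had one in 293T only, and of 4 fibroblast genes 2 had one in both lines and 2 in 293T only. All 4 fibroblast genes thus had a peak in 293T, so that list did not follow the label of the line.

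HOX genes encode homeodomain transcription factors that set position along the body axis. In vertebrates they are activated in the order in which they stand in the cluster, from HOXD1 toward HOXD13. HOXD genes are unusual in lying between a pair of gene deserts that hold long-range enhancers. In mouse limb buds, enhancers on the HOXD13 side act on the last genes of the cluster in the forming digits, and enhancers on the HOXD1 side act on the middle genes in the forming forearm. In cells that do not use them, HOX genes are covered by Polycomb complexes, which keep chromatin compact.

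RefSeq (GRCh38.p14) gave a start and a promoter sequence, from 250 bases before to 50 bases after the start, for 8 of the 9 members, all on the plus strand. HOXD9 was read at both gene ends instead. The sequences are shown for members with a start peak in both lines (HOXD13, HOXD8), in 293T only (HOXD11, HOXD3, HOXD1) and in neither (HOXD10, HOXD4), and for the long non-coding RNA gene HAGLROS, whose start peak was found in J76 only. They lie at chr2:176092471-176092770 (HOXD13), chr2:176107030-176107329 (HOXD11), chr2:176116528-176116827 (HOXD10), chr2:176129455-176129754 (HOXD8), chr2:176151300-176151599 (HOXD4), chr2:176157057-176157356 (HOXD3), chr2:176188418-176188717 (HOXD1) and chr2:176177916-176178215 (HAGLROS). Capitals mark CACGTG, the E-box bound by factors such as MYC and USF, and CCAAT or its reverse complement ATTGG.
HOXD13: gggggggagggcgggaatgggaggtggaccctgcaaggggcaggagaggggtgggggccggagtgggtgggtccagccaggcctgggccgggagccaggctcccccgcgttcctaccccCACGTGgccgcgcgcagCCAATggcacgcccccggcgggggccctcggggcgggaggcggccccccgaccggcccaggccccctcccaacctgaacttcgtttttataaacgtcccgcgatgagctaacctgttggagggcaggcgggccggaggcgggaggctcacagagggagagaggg
HOXD11: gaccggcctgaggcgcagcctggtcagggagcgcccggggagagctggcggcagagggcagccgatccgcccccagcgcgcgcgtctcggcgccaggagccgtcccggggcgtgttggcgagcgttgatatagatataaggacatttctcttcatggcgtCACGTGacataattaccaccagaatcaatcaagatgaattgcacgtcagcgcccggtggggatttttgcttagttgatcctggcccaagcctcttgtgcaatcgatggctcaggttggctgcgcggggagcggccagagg
HOXD10: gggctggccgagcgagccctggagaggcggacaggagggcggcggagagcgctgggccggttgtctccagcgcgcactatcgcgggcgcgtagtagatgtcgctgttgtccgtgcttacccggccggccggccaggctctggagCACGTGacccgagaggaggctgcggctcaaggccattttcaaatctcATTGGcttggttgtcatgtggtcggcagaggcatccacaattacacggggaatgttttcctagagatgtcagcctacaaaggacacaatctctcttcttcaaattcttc
HOXD8: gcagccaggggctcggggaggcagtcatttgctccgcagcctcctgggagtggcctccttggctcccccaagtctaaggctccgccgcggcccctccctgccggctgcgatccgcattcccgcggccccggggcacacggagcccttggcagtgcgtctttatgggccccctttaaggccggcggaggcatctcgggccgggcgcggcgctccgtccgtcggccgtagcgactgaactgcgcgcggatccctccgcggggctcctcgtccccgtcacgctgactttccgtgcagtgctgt
HOXD4: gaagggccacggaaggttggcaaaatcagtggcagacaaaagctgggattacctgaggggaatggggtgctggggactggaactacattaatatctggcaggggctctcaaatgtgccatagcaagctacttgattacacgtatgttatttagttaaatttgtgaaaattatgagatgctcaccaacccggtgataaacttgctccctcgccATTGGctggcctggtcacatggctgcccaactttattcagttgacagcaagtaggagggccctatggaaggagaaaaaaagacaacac
HOXD3: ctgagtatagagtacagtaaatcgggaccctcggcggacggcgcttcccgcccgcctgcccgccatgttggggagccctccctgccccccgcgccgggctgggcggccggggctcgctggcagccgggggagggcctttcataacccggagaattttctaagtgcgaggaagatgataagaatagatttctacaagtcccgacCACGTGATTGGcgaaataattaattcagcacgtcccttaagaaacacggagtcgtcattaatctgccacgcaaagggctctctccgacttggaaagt
HOXD1: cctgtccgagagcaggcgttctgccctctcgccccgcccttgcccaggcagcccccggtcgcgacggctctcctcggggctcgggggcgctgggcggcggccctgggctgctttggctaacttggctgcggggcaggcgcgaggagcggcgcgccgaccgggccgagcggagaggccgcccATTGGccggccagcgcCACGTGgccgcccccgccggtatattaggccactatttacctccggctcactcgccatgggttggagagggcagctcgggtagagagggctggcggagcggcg
HAGLROS: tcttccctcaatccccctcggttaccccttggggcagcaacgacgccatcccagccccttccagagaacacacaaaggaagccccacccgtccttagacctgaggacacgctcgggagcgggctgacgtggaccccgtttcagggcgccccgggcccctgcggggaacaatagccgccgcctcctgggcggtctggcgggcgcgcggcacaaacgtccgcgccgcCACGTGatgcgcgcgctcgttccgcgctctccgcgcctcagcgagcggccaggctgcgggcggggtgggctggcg

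The E-box CACGTG was found in 5 of the 8 member promoters (HOXD13, HOXD11, HOXD10, HOXD3 and HOXD1), on either strand since it is its own reverse complement, against 8.34% of 22156 promoters of protein-coding genes and 7.26% of all 35116 promoters, of the same length. It began 131 bases before the start of HOXD13, 90 before HOXD11, 106 before HOXD10, 47 before HOXD3 and 53 before HOXD1. The CCAAT box was found on either strand in 6 of the 8, against 34.6% both of protein-coding and of all promoters. In HOXD3 the 2 motifs stand side by side without overlap. GGGCGG, a GC box, was in 5 of 8, against 56.3% of protein-coding and 45.0% of all promoters. TATAAA was in 1 of 8 (HOXD13), against 9.46% and 11.5%, and a core of the CTCF motif in 0 of 8, against 2.52% and 2.41%, each counted on both strands. These motifs were chosen with the member sequences in view, and a match is a description of the letters only.

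HOXD10 has an E-box in this window and had no start peak, while HOXD8 has none there and had a start peak in both lines. CpG dinucleotides numbered 24 in the HOXD13 promoter, 19 in HOXD12, 27 in HOXD11, 23 in HOXD10, 34 in HOXD8, 4 in HOXD4, 25 in HOXD3 and 36 in HOXD1. The median over the promoters of protein-coding genes was 21 (interquartile range 7 to 31). The 5 members with a start peak in either line had 24 to 36, and the 3 without one had 4, 19 and 23. HOXD13 and HOXD10 were only 1 apart, and the HOXD3 peak covered 0 bases of the promoter counted. Over all protein-coding promoters the median was 26 (interquartile range 16 to 34) for those with a start peak in both lines. It was 10 (4 to 20) for those with one in J76 only, 16 (6 to 28) for those with one in 293T only and 5 (2 to 11) for the rest. The ranges of the line-only promoters thus overlapped that of the rest, and HOXD12 and HOXD10 lay above the latter.

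Along the region, 293T had more peaks in the cluster and J76 had more on the HOXD1 side. The HOXD13-side flank had 12 J76 peaks and 13 293T peaks, the cluster 8 and 15, and the HOXD1-side flank 19 and 14. The ratio of J76 to 293T peaks was thus 0.923 on the HOXD13 side, 0.533 in the cluster and 1.36 on the HOXD1 side, beside 0.691 over the whole lists, 0.587 on chromosome 2 and 0.734 in the 10 Mb around the cluster. Tiled windows of the same 1703 kb held a median of 29 J76 peaks (interquartile range 17 to 45) and 47 293T peaks (31 to 62), so that the region's 39 and 42 peaks lay within both ranges. For windows of the cluster's length the medians were 1 (0 to 3) in J76 and 2 (1 to 4) in 293T, against 8 and 15 in the cluster. Peaks covered 6.28% of the cluster in J76 and 13.4% in 293T, whereas in the flanks they covered 0.677% and 1.20% on the HOXD13 side and 1.05% and 1.06% on the HOXD1 side.

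**Figure D1:**
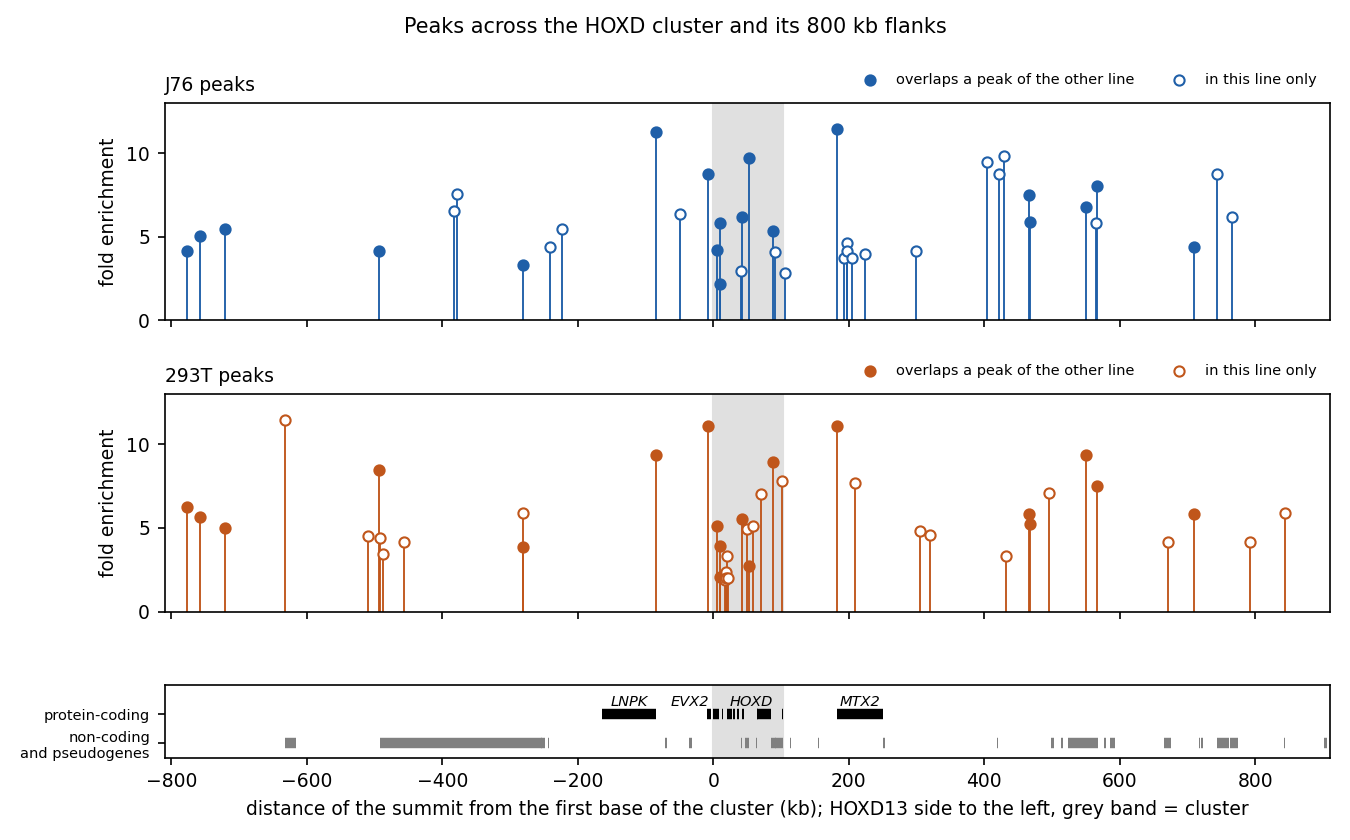
Peaks of J76 (top) and 293T (middle) by distance of the summit from the first base of the cluster in kb, with the authors' fold enrichment as height; filled dots overlap a peak of the other line and open dots do not, and the bottom strip shows genes. The cluster (grey) holds 8 J76 and 15 293T peaks, and the flanks hold separated groups of peaks with long empty stretches.

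In J76, 20 of the 39 peaks overlapped no 293T peak (51.3%, 95% Wilson interval 36.2 to 66.1), against 47.7% of the whole J76 list. In 293T, 23 of the 42 overlapped no J76 peak (54.8%, 39.9 to 68.8), against 64.0% of the whole 293T list. The whole region therefore lay near the background in both lines. By zone, J76-only peaks made up 5 of 12 on the HOXD13 side (41.7%, 19.3 to 68.0), 2 of 8 in the cluster (25%, 7.15 to 59.1) and 13 of 19 on the HOXD1 side (68.4%, 46.0 to 84.6). 293T-only peaks made up 6 of 13 on the HOXD13 side (46.2%, 23.2 to 70.9), 9 of 15 in the cluster (60.0%, 35.7 to 80.2) and 8 of 14 on the HOXD1 side (57.1%, 32.6 to 78.6). Each of these 6 intervals, which cover counting error only, holds the share of its whole list. On the HOXD13 side the sign of the difference between 5 and 6 line-only peaks turned with flanks of 500 kb.

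**Figure D2:**
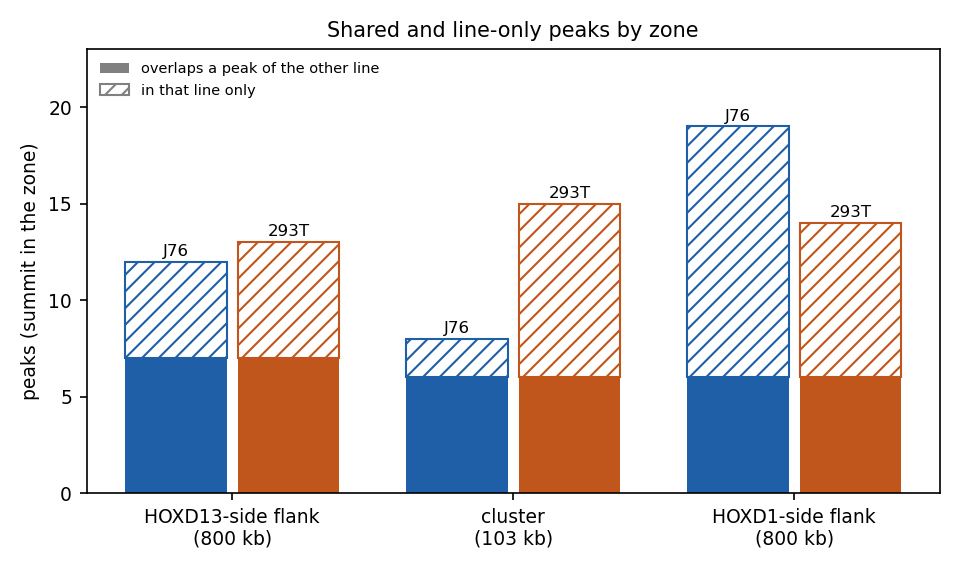
Number of peaks with the summit in each zone (y axis) for J76 and 293T; solid bars overlap a peak of the other line and hatched bars do not. The lines share 7, 6 and 6 peaks from left to right, and the cluster adds 2 J76-only and 9 293T-only peaks while the HOXD1-side flank adds 13 and 8.

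At the gene starts, 2 of the 9 members had a peak in J76 and 5 in 293T, beside 64.8% and 69.8% of 19974 protein-coding genes. HOXD13 and HOXD8 had one in both lines (61.2% of all genes did), HOXD11, HOXD3 and HOXD1 in 293T only (8.67%), none in J76 only (3.63%), and HOXD12, HOXD10, HOXD9 and HOXD4 in neither. A start peak is one that overlaps the 1 kb on either side of the start. With a 2.5 kb window HOXD12 gained one in both lines, and when either end of the listed gene span was used instead of the start, HOXD3 lost its call. HOXD13 then kept its call in both lines, but through a different and weaker site past the far end of the gene (fold 2.18 in J76 and 2.07 in 293T). For each peak the authors' fold is its enrichment over background at the summit and their −log10 q its significance, and both rank peaks within 1 list.

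HOXD13, which shapes digits and genitalia and is mutated in human synpolydactyly, had a start peak with a fold of 4.24 and a −log10 q of 24.2 in J76, against 5.12 and 56.4 in 293T. Both peaks covered all 300 bases of the promoter shown, and the J76 peak (1082 bp) lay wholly inside the 293T peak (1318 bp, 176092290 to 176093607). Next to it, between HOXD13 and HOXD12, stood a pair of sites found in both lines. The weaker, from 176096610 to 176096894, had a fold of 2.18 in J76 and 2.07 in 293T. The stronger, from 176097063 to 176097919, had a fold of 5.81 in J76 and 3.94 in 293T, with summits 34 bp apart. HOXD12 itself had no start peak, and its start lay 1.89 kb from the nearest J76 peak and 1.88 kb from the nearest 293T peak, both of them at this site.

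HOXD11, which acts with its paralogs in forearm and kidney development in mice, had a start peak in 293T only. A run of 5 293T-only peaks lay before, over and just after its start, from 176104305 to 176108817, with no J76 peak among them. The strongest, from 176106222 to 176107818, spanned the start and the whole promoter shown, with a fold of 3.33 and a −log10 q of 30.4. The other 4 had folds of 1.88 to 2.35 and −log10 q values of 4.93 to 11.4. The nearest J76 peak to the HOXD11 start was 9.37 kb away.

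HOXD10, which acts with its paralogs in lumbar motor neurons and the hindlimb in mice, and HOXD9 had no start peak in either line. The nearest peak to the HOXD10 start was 12.1 kb away in J76 and 7.96 kb away in 293T. For HOXD9 the nearest peak to a gene end was 3.92 kb away in J76 and 4.52 kb away in 293T, in both cases toward HOXD8. HOXD8 had a start peak in both lines, with a fold of 6.18 in J76 and 5.52 in 293T and −log10 q values of 40.3 and 43.5. The J76 peak covered 269 of the 300 promoter bases and the 293T peak all of them. The start of the lncRNA gene LOC100129455, on the minus strand, falls in the same peaks, so they cannot be assigned to HOXD8 alone. A weaker J76-only peak stood 585 bp before the HOXD8 start (176128854 to 176129120, fold 2.97).

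Between HOXD8 and HOXD4 the lines differed at 3 sites. A 293T-only peak from 176135926 to 176137274 (fold 4.93) lay at the starts of HOXD-AS2 and LOC401021, overlapping lncRNA genes on opposite strands. A second 293T-only peak from 176145951 to 176146772 had a fold of 5.13 and lay 3.53 kb before MIR10B, which encodes the microRNA miR-10b. Between them, just past the end of LOC401021, a site found in both lines was strong in J76 and weak in 293T. There the J76 peak had a fold of 9.69, the highest of the cluster in that line, and a −log10 q of 57.5, which stood above that of 86.9% of its list. The 293T peak had a fold of 2.71 and a −log10 q of 4.93, which stood above that of 26.9% of its list. This was the widest gap in list position among the 6 sites of the cluster found in both lines.

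HOXD4, which patterns the hindbrain and neck vertebrae in mice, had no start peak, and its start was 10.3 kb from a J76 peak and 4.78 kb from a 293T peak. HOXD3, which shapes the first neck vertebrae in mice, had a 293T-only peak from 176157480 to 176159147 with a fold of 7.04 and a −log10 q of 42.3. It began 173 bp after the listed start and covered 0 of the promoter bases shown, and the nearest J76 peak was 16.05 kb from the start. HOXD1, the first gene of the cluster, had a 293T-only peak from 176187645 to 176188891, with the highest fold of the member start peaks, 7.82, and a −log10 q of 34.5. It covered all 300 bases of the promoter, and it also lies at a start of HAGLR, a lncRNA gene on the other strand, and at an end of MIR7704. The nearest J76 peak to the HOXD1 start was 4.10 kb away and weak, with a fold of 2.85 and a −log10 q of 2.03, above that of 0.337% of its list. Its summit lay 1.89 kb past the cluster, so it counts as a J76-only peak of the HOXD1-side flank.

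Inside HAGLR both lines had a peak from 176174423 to 176175604, with a fold of 5.38 in J76 and 8.92 in 293T and summits 2 bp apart. J76 alone had a peak from 176177791 to 176178868 (fold 4.07, −log10 q 17.5), over the start of HAGLROS and an inner start of HAGLR. It covered all 300 bases of the HAGLROS promoter, and the nearest 293T peak was 2.56 kb away. The longest stretch of the cluster without a J76 peak ran for 33.3 kb, from 176141260 to 176174570, over MIR10B, HOXD4 and HOXD3. The longest without a 293T peak ran for 20.6 kb, from 176108818 to 176129453, over most of HOXD11, HOXD10 and HOXD9.

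**Figure D3:**
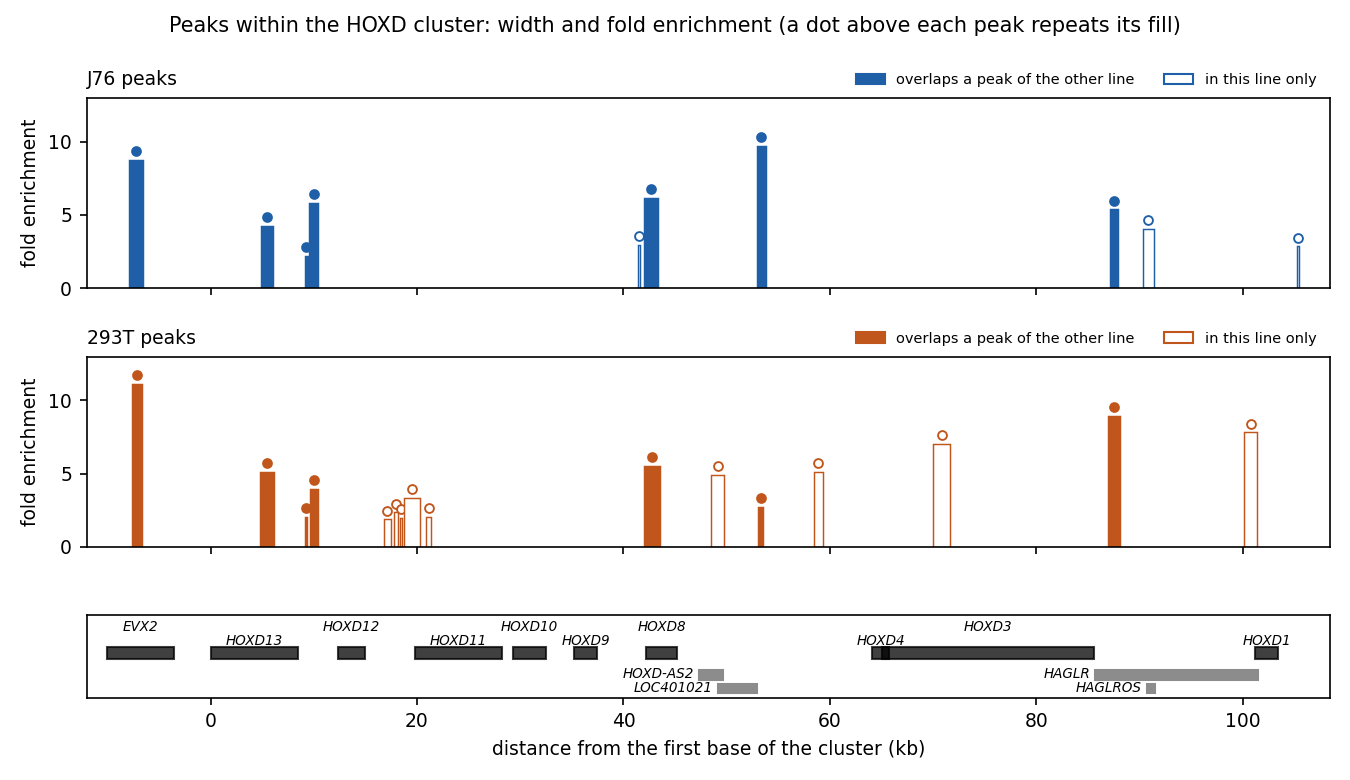
Each bar is a peak of J76 (top) or 293T (middle), drawn to its width along the cluster and its edges in kb and to the height of its fold enrichment, filled where it overlaps a peak of the other line and open where it does not, with genes at the bottom. The open 293T bars at HOXD11 are low (folds 1.88 to 3.33), and those at HOXD3 and HOXD1 reach 7.04 and 7.82.

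The folds of cluster peaks were low for their significance, in both lines. Each peak was set beside the median fold of the peaks of its own list whose −log10 q was within 10% of its own. In the cluster the ratio had a median of 0.690 in J76 (range 0.613 to 1.12) and 0.608 in 293T (0.446 to 1.06), and 7 of 8 J76 and 13 of 15 293T peaks were below 1. On the HOXD13 side it was 1.07 in J76 and 1.05 in 293T, with 0 of 12 and 4 of 13 below 1. On the HOXD1 side it was 1.06 and 1.09, with 1 of 19 and 0 of 14 below 1. Folds under 2.5 were found for 1 of 8 J76 and 5 of 15 293T cluster peaks, beside 1.39% and 2.09% of the whole lists, and for 0 flank peaks. The fold is the authors' ratio to the background that the peak caller estimated, with settings not given in the sources used here, and the part of that background in these ratios was not tested.

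**Figure D4:**
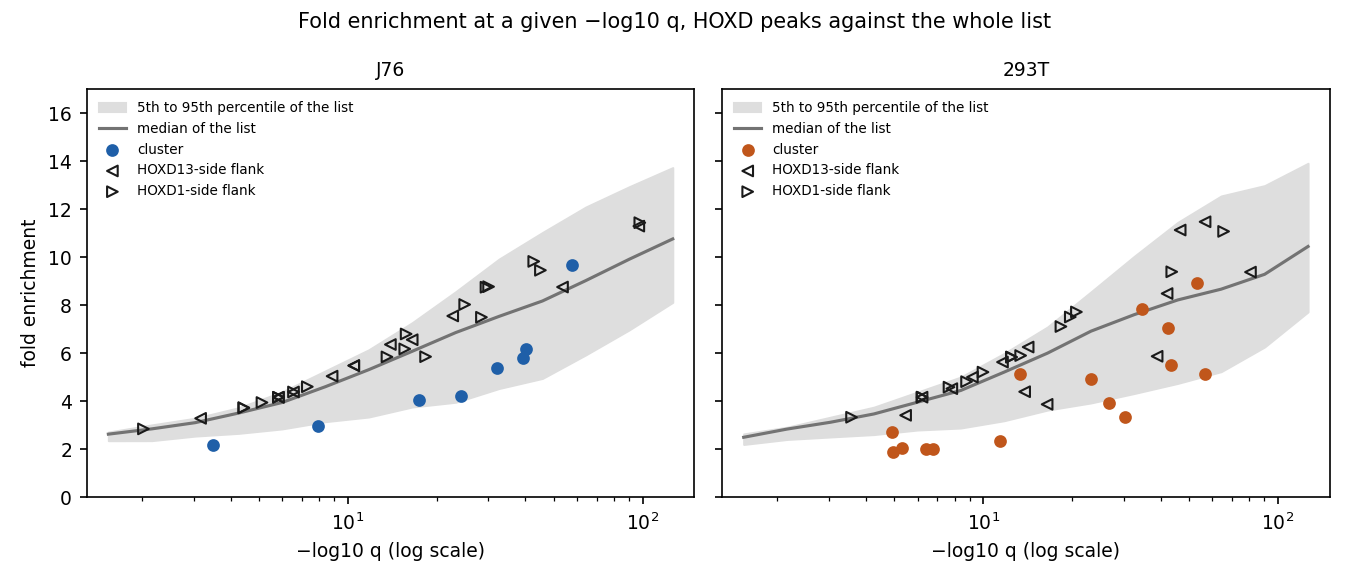
Fold enrichment (y axis) against −log10 q (x axis, log scale) for HOXD peaks in J76 (left) and 293T (right), over the median and the 5th to 95th percentile of all peaks of the list. Of the flank peaks (triangles), 1 in J76 and 4 in 293T lie below the median at their own −log10 q, while 7 of 8 J76 and 13 of 15 293T cluster peaks (dots) do.

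In each of the 4 HOX clusters 293T had more peaks than J76, as over the whole lists, where the J76 to 293T ratio was 0.691. The cluster zones of HOXD, HOXA, HOXB and HOXC held 8, 8, 15 and 8 J76 peaks and 15, 22, 25 and 26 293T peaks. These zones span 103, 107, 200 and 117 kb. Per Mb they held 77.4, 74.7, 74.9 and 68.3 J76 peaks and 145, 205, 125 and 222 293T peaks. 293T-only peaks made up 9 of 15 in HOXD (60.0%), 16 of 22 in HOXA (72.7%), 14 of 25 in HOXB (56.0%) and 21 of 26 in HOXC (80.8%). The share of the whole 293T list was 64.0%, above HOXD and HOXB and below HOXA and HOXC. Folds under 2.5 were found for 5, 16, 9 and 8 of the 293T peaks in the same order, and for 1, 1, 0 and 0 of the J76 peaks. The ratio of fold to the list's fold at a like −log10 q had a median of 0.690 for J76 in HOXD, against 0.830, 0.983 and 0.904 in HOXA, HOXB and HOXC, and of 0.608 for 293T in HOXD, against 0.481, 0.640 and 0.611. The HOXD region holds 12 protein-coding genes, against 18 around HOXA, 41 around HOXB and 46 around HOXC. Its flanks had 12 and 19 J76 peaks and 13 and 14 293T peaks. The HOXA flanks had 6 and 8 J76 peaks and 13 and 15 293T peaks. The HOXB flanks had 31 and 37 J76 peaks and 27 and 31 293T peaks. The HOXC flanks had 38 and 38 J76 peaks and 54 and 59 293T peaks. More J76 than 293T peaks were thus found in both HOXB flanks as well as on the HOXD1 side. None of these differences between clusters was tested.

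**Figure D5:**
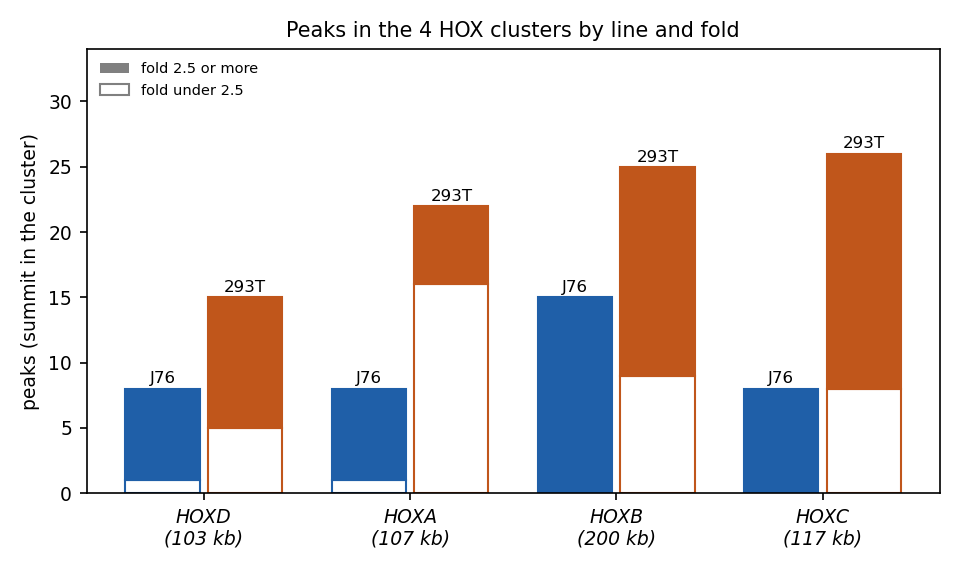
Number of peaks with the summit in each HOX cluster (y axis) in J76 and 293T, split into peaks with a fold under 2.5 (open) and of 2.5 or more (solid). In HOXD 5 of 15 293T peaks are open, against 16 of 22 in HOXA, 9 of 25 in HOXB and 8 of 26 in HOXC.

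In the other clusters, 4 of 11 HOXA, 2 of 10 HOXB and 2 of 9 HOXC genes had a peak in 293T only. Over all protein-coding genes the share was 8.67%. The HOXA genes were HOXA4 with a fold of 4.78, HOXA11 with 2.86, HOXA9 with 1.98 and HOXA5 with 1.90. The HOXB genes were HOXB6 (2.76) and HOXB3 (2.41), and the HOXC genes HOXC11 (3.28) and HOXC9 (2.15). HOXD3 and HOXD1, at 7.04 and 7.82, had higher folds than any of these 8. A start was listed for 9 of the 11 HOXA, 1 of the 10 HOXB and 2 of the 9 HOXC genes. For HOXD it was listed for 8 of 9. Genes without a listed start were read at either end, so most HOXB and HOXC calls rest on a different measure from the HOXD calls. No HOX gene had a start peak in J76 only, except that 1 HOXA gene did at a −log10 q of at least 5 or 10, with lists of equal length or with a 2.5 kb window. Genes for factors that act with or on HOX genes mostly had start peaks in both lines, as did 61.2% of all protein-coding genes, with 3.63% in J76 only. Of 9 genes for the HOX cofactors of the PBX, MEIS and PKNOX families, 8 had a start peak in both and MEIS2 in J76 only (fold 4.95), a call that was lost at either gene end or with a 2.5 kb window. Of 16 Polycomb genes, 15 had one in both and PCGF2 in neither, and all 7 trithorax and boundary genes, CTCF among them, had one in both.

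On the HOXD13 side, the desert runs past EVX2 and LNPK. EVX2, a homeobox gene next to HOXD13 that shares its limb enhancers in mice, had a peak inside the gene in both lines, from 176079563 to 176080904, with a fold of 8.76 in J76 and 11.1 in 293T. It stood 3.06 kb (J76) and 3.13 kb (293T) from the EVX2 start, which had no peak. The start of LNPK, which encodes an endoplasmic reticulum protein, had a peak in both lines with a fold of 11.3 in J76 and 9.38 in 293T. Of the sites far from these genes, the shared one with the highest fold in 293T lay 493 kb from the cluster, from 175593925 to 175594660, with a fold of 4.17 in J76 and 8.49 in 293T. Its summits lay 445 bp apart, and the J76 peak was 203 bp wide against 736 bp in 293T. A further 3 shared sites lay 721 to 778 kb away, with folds of 4.17 to 5.49 in J76, where 2 of them were above the site at 493 kb, and 5.01 to 6.26 in 293T.

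Outside protein-coding genes this flank had 10 J76 and 11 293T peaks, of which 5 and 6 were in that line only. The J76-only peaks lay 48.6 to 383 kb from the cluster. The highest fold was 7.55 (175709365 to 175709953), followed by 6.56 (175704232 to 175704572), 6.37 at 48.6 kb (176038700 to 176039052), 5.49 (175864205 to 175864471) and 4.39 (175845688 to 175845943). The 293T-only peaks lay 280 to 632 kb away. The strongest, from 175454798 to 175455502, had a fold of 11.5 and a −log10 q of 56.6, the highest fold of any 293T peak in the region, and began 192 bp inside the lncRNA gene LOC105373752. The nearest J76 peak to that gene's start was 87.6 kb away. The next 4 had folds of 5.88, 4.53, 4.40 and 4.17. The peak with a fold of 5.88 (175806970 to 175807845) began soon after a shared 293T peak that ended at 175806714. Likewise, the peak with a fold of 4.40 (175594889 to 175595468) began soon after a shared 293T peak that ended at 175594660. By distance, 3 of the 6 293T-only peaks lay 400 to 500 kb from the cluster, where J76 had 1 peak, a shared one, and 2 of the 5 J76-only peaks lay 300 to 400 kb away, where 293T had no peak. At 200 to 300 kb both lines had line-only peaks, 2 in J76 and 1 in 293T. Neither line had a peak 100 to 200 kb from the cluster.

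On the HOXD1 side, the gene MTX2, for a mitochondrial outer membrane protein, had a start peak in both lines, with a fold of 11.4 in J76 and 11.1 in 293T. Within MTX2, J76 had 5 further peaks, all in J76 only, with folds of 3.73 to 4.61 and −log10 q values of 4.44 to 7.29. Of these, 4 formed a chain from 176280901 to 176292029. 293T had 1, from 176297035 to 176297507, with a fold of 7.72. Without MTX2 and its surroundings the flank had 13 J76 and 12 293T peaks, of which 8 and 7 were in that line only, so the difference of 5 line-only peaks fell to 1.

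In the desert beyond MTX2, J76 had 3 strong peaks that 293T lacked, 301, 318 and 325 kb from the cluster. Their folds were 9.46 (176491116 to 176491852), 8.77 (176508678 to 176509620) and 9.82 (176516002 to 176516795), and their −log10 q values 45.0, 30.0 and 42.7. The middle one stood 976 bp before the start of the lncRNA gene NRAL. 293T had a single weak peak beside them, 328 kb away, with a fold of 3.34 and a −log10 q of 3.58. Farther out, J76-only peaks with folds of 8.75 and 6.18 stood 640 and 662 kb away, the first at the end of the lncRNA gene LOC105373757 and the second inside LOC105373756. After the peak in MTX2, the highest 293T-only folds were 7.11 (176582966 to 176583900), 5.91 (741 kb away), 4.82 and 4.59.

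Apart from MTX2, 5 sites on this side were found in both lines. The divergent lncRNA genes LINC01116 and LINC01117 had a start peak in both, with a fold of 6.80 in J76 and 9.39 in 293T. The J76 peak began 421 bp after the LINC01117 start and covered 0 of the 300 bases of the LINC01117 promoter, against 259 for the 293T peak. A site 463 kb from the cluster within LINC01117 had a fold of 8.03 in J76 and 7.51 in 293T. A pair of neighbouring sites 363 and 364 kb away had folds of 7.50 and 5.86 in J76, against 5.84 and 5.22 in 293T. The last, 606 kb away, had a fold of 4.39 in J76 and 5.84 in 293T. Over the whole region the 19 sites found in both lines had summits a median of 34 bp apart, and 15 were within 250 bp. Summits lay farther apart at the HOXD13 start (296 bp) and in EVX2 (353 bp). They also did so 281 kb (304 bp) and 493 kb (445 bp) from the cluster on the HOXD13 side. The longest peak-free stretches were 227 kb in J76 (175367047 to 175593952) and 193 kb in 293T (175807846 to 176001277), both on the HOXD13 side.

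Of the 18 lncRNA genes of the region, 4 had a start peak in both lines and 9 had none, beside 20.9% and 65.0% of 18177 lncRNA genes. HAGLROS and NRAL (2 of 18) had one in J76 only, beside 5.01%, and LOC105373752, HOXD-AS2 and LOC401021 (3 of 18) in 293T only, beside 9.14%. Among the 4 with peaks in both, LINC01116 and LINC01117 share theirs, LOC100129455 shares its peaks with HOXD8, and HAGLR had its peaks at different starts in the lines. Of the 3 miRNA genes, MIR7704 had a peak at an end in 293T only, beside 5.44% of 1911 miRNA genes, in the peak it shares with HOXD1. MIR10B and MIR1246 had none in either line, beside 78.0%. The nearest peak to MIR10B was 9.04 kb away in J76 and 3.53 kb away in 293T, and to MIR1246 37.1 kb away in J76 and 17.1 kb away in 293T. All 9 pseudogenes lacked a peak at either end in both lines, beside 88.7% of 15212 pseudogenes.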

How the data were processed

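One ATAC-seq library was made per line from 50000 cells with a Tn5 transposase purified by the submitters, per the labels' protocols. Per the submitters' processing notes, Bowtie2 and MACS2 were used, with versions, settings, duplicate removal and any shift of cut sites not given in the sources used here. For each library the authors deposited 1 narrowPeak list. Per the file layout, the deposited columns are a fold enrichment (a linear ratio), a −log10 p and a −log10 q at the summit, and an integer score, which is a rounded-down multiple of that −log10 q and was not used. Folds and −log10 values described and ranked peaks within a list.

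The build was not given in the sources used here. GRCh38 was taken from the contig names in both lists. On it, 18.1% of J76 and 14.1% of 293T summits lay within 1 kb of a RefSeq start, against 1.97% and 1.79% after a move of 10 kb. Genes, starts and promoter sequences are from RefSeq GRCh38.p14. A start was listed for 15812 of 19974 protein-coding genes, and the other 4162 were read at either end. Zones were set by the summit, sharing by an overlap of 1 bp. Shares carry 95% Wilson intervals (SciPy 1.17.1, Python 3.11.15). Routines were tested on simulated peaks.

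The members, gene lists and motifs were chosen with earlier results of these data known. Named were members and region genes, every cluster peak, in each flank the 5 line-only peaks of each line and the 3 shared sites with the highest fold, chains of at least 4 line-only peaks with summits within 12.5 kb, and per gene list up to 4 genes in 1 line only. Other flank peaks and markers were chosen with their values in view. The settings varied were a minimum −log10 q (5 or 10), lists of equal length (58730 peaks each), other overlap, zone, flank and window rules, and either gene end.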

Additional observations from a re-analysis of the deposited data

How the results depend on the processing

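J76-only minus 293T-only peaks came to -7 in the cluster, between -7 and -4 over 8 alternatives, and to 5 in the HOXD1-side flank, between 1 and 6 over 9, so both kept their sign. Flanks of 500 kb could not change the cluster value, and a cluster widened to EVX2 could not change the HOXD1-side value. Over the whole lists, 28034 J76 and 54385 293T peaks were in that line only, so the sign in the cluster is also that of the whole lists. In the HOXD13-side flank the difference was -1. It turned to 1 with flanks of 500 kb, and it was 0 with lists of equal length. That last setting also gave 4 J76-only cluster peaks in place of 2, because it drops weak 293T peaks. With a minimum −log10 q of 10, the HOXD1-side flank held 11 J76 and 8 293T peaks, 7 and 4 of them in that line only, and the HOXD13-side flank held 7 J76 peaks. With flanks of 500 kb 293T had 8 peaks on the HOXD13 side and 5 293T-only peaks on the HOXD1 side, where fewer bases are counted. Calling summits within 250 bp shared gave 8 J76-only peaks on the HOXD13 side. Leaving out protein-coding genes and 1 kb around them, chosen after seeing the data, left 8 J76-only peaks on the HOXD1 side. The members with a start peak numbered 2 or 3 in J76 and 4 to 6 in 293T over all settings. At either gene end HOXD3 lost its call, because neither end of its listed span lies near its peak. HOXD13 kept its call there only through a different and weaker peak, with a fold of 2.18 in J76 and 2.07 in 293T. The number in J76 only was 0 throughout. No paired analysis was possible because each line has 1 library. For start-peak counts of the 6 other gene lists (HOXA, HOXB, HOXC, cofactors, Polycomb, trithorax and boundary), 15 values moved and 129 did not. Unknown depth and single libraries limit all counts.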
